A study of Arabidopsis thaliana with 15 samples.

Results

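The comparison follows leaves of whole darkened Arabidopsis thaliana plants (DP) between day 3 and day 6 of darkness, across all genes that the arrays measured. It rests on 6 of the 15 arrays of the study, 3 titled as DP leaves after 6 days of darkness and 3 titled as DP leaves after 3 days, and on the 16174 genes whose probe sets were paired with exactly 1 gene. In the DP groups at day 6 and day 3, intact Col-0 plants were shut in dark boxes and put back in their growth chamber. In the individually darkened leaf groups (IDL) at day 6 and day 3, single full-grown leaves were wrapped in foil-coated mittens while the remaining rosette went on receiving light. A light group was taken at day 0. All plants were raised at 22 °C in short days, with 8 h of white light at 180 µmol m−2 s−1 followed by 16 h without, and each of the 3 biological replicates of a group pooled 2 leaves from independent plants harvested at noon. No light leaves of day 3 or day 6 were analysed here, so the time in darkness and the age of the leaf cannot be told apart, and leaves of both days came from different plants. Leaves were bulk material, in which fewer cells of a type and less RNA per cell cannot be told apart.

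A darkened leaf stops photosynthesis and comes to live on its reserves. Starch and sugars are used first, and later proteins, membrane lipids and chlorophyll are broken down, with amino acids feeding respiration and autophagy carrying cell contents into the vacuole. A single leaf in the dark on a plant in light is known to senesce quickly, whereas leaves of a plant that is dark as a whole stay green for longer and can recover when light returns. Light and hormones such as auxin and brassinosteroid also set cell growth, and plants kept in the dark stretch their stems and petioles.

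The arrays differed little in overall level, with medians of 18.31 to 18.91 intensity units on the 6 DP arrays, on the linear scale of the deposited values. Over all 26676 probe sets, arrays of day 6 correlated with each other at 0.985 to 0.986 and arrays of day 3 at 0.984 to 0.988. Arrays of different days correlated at 0.974 to 0.980. Leaf identity showed in the light arrays, where the photosystem gene PSBW had 4651, 2987 and 2905 intensity units and PSAE-1 had 2514, 2901 and 2391 units. The root marker EXPA7 stayed at 13.4, 13.2 and 13.4 units in DP at day 6, 10.6, 14.4 and 11.7 units in DP at day 3 and 14.5, 12.4 and 11.8 units in light, against a lower quartile over genes of 10.8 to 11.4 units. Of the gene lists used here, 127 of 587 entries (21.6%) were measured, and 1625 of the genes tested carried a symbol. Changes below are day 6 minus day 3 on the log2 scale with their standard error, n = 3 arrays per group, and the adjusted p is that of limma.

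Between day 3 and day 6 of darkness, 738 genes changed in DP leaves, which is 4.56% of the 16174 tested. Of these, 328 rose (2.03%) and 410 fell (2.53%). Most of the changes were small, with a median size of 0.60 on the log2 scale among the genes called, and 71 genes changed at least 2-fold, 27 of them higher and 44 lower. The 3 arrays of day 6 lay wholly on 1 side of the 3 arrays of day 3 for 730 of the 738 genes, which a call on the same arrays nearly implies. Over all genes tested such separation held for 20.3% (10.2% with day 6 higher and 10.1% with day 6 lower). At an unadjusted p under 0.05 there were 2687 genes. The median change over all genes tested was 0.00. The split depended on the scale. When 6 reference genes served to centre the arrays, the overall median became 0.22, and 2196 genes were then called higher and 153 lower. Of those 6 genes AT2G28390 itself fell by 0.58 ± 0.12 (adjusted p = 0.00696), and the other 5 did not pass. Quantile normalization gave 416 higher and 387 lower, and centring on the array medians gave 285 higher and 476 lower. In none of these settings did any of the 738 genes turn its sign, which their sizes nearly ensured. The smallest change among them was 0.37, and each centring moved all genes alike, by less than that. With the reference genes as the scale the lost calls included PORB, PSAN, NOL, TAAC, BRH1, GSTU18, COR47, BGLU16 and AT1G22690 (adjusted p = 0.0907 to 0.259 for these genes). Among the fits that left out 1 DP array, the count was lowest without replicate 2 of day 6 (420 genes) and was 441 without replicate 1 of day 3.

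Calls were found mostly among well expressed genes. In the quartile of genes with the highest mean level 181 rose and 287 fell, and in the third quartile 111 rose and 101 fell. The second quartile held 32 rises and 17 falls, and the quartile of the dimmest genes held 4 rises and 5 falls. Genes with a symbol made up 13.8% of the genes called and 10.05% of those tested, with 26 among the rises and 76 among the falls, so most of the rises can be given by locus code alone.

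**Figure D1:**
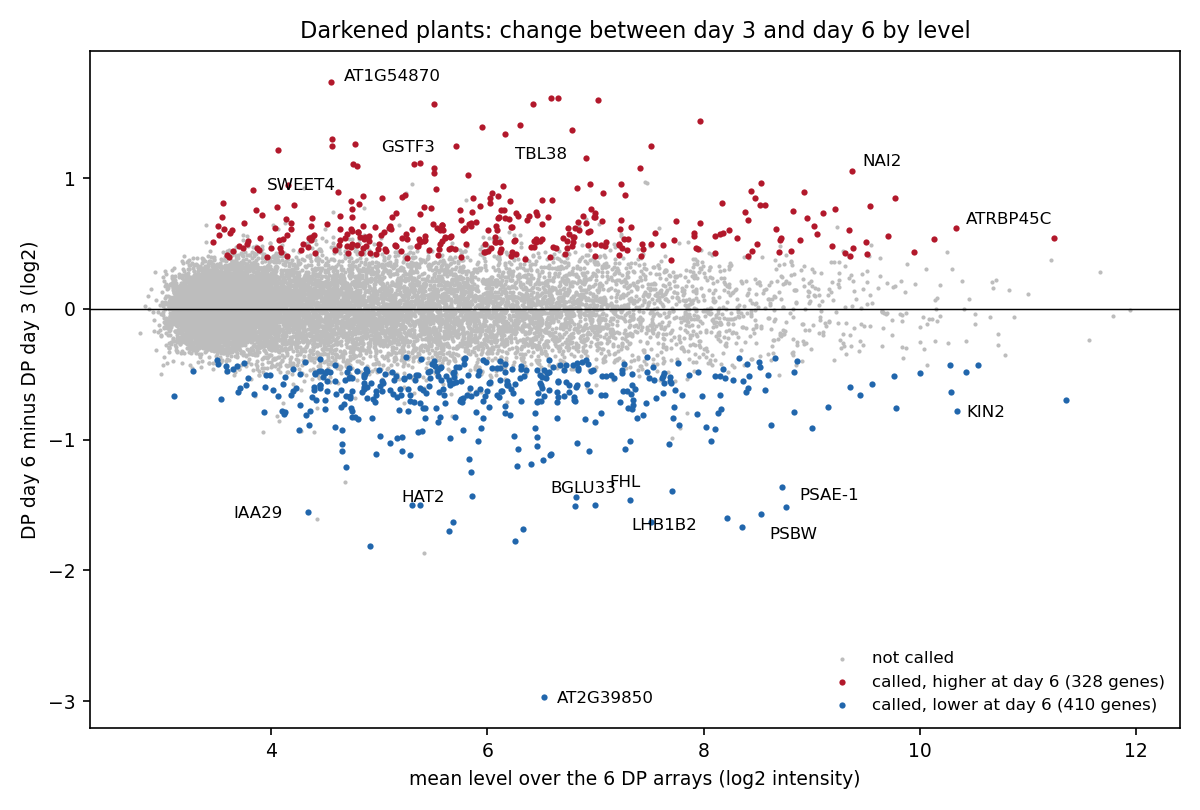
Mean level over the 6 DP arrays (x axis, log2 intensity) and change between the days (y axis, day 6 minus day 3, log2) of the 16174 genes tested. Red points are the 328 genes called higher at day 6 and blue points the 410 called lower. Grey points were not called, and 9 of the called genes lie in the lowest quartile of level.

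The largest changes of all belonged to loci without a symbol, chosen here after their values were seen. AT2G39850 had 26.6, 22 and 61.2 units in DP at day 6, against 279.7, 235 and 261 units in DP at day 3, and fell by 2.97 ± 0.24 (adjusted p = 1.7e-07). It was 7.83-fold higher at day 3, and in light it had 449, 429 and 382 units, so the day 6 arrays were the lowest of the 3 groups. AT5G02540 fell by 1.81 ± 0.14 and AT1G66100 fell by 1.77. The largest rise was that of AT1G54870, with 55.9, 26.5 and 53.5 units in DP at day 6, against 10.8, 11.4 and 17.3 units in DP at day 3, and it rose by 1.74 ± 0.22 (adjusted p = 7.02e-05). AT1G63570 rose by 1.62 ± 0.18 and AT3G46370 rose by 1.61 ± 0.18. Among these 6 loci the arrays of both days did not overlap.

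Genes of the photosystems and their antennae fell between day 3 and day 6. Of 8 measured genes for photosystem subunits and antenna proteins, 5 fell, none rose and 3 did not pass, with a median change of -0.65 against 0.00 over all genes. LHB1B2, a chlorophyll-binding antenna protein of photosystem II, had 195, 160.1 and 160.3 units in DP at day 6, against 528, 545 and 483 units in DP at day 3. All 3 arrays of day 6 were far below those of day 3, and the gene fell by 1.60 ± 0.11 (adjusted p = 5.29e-08), so that it was 3.03-fold higher at day 3. PSBW, a small subunit of the photosystem II core, had 201, 227 and 216 units in DP at day 6, against 574, 671 and 664 units in DP at day 3, and fell by 1.56 ± 0.15 (adjusted p = 2.07e-06). PSAE-1, a subunit of photosystem I on the side where ferredoxin docks, had 332, 228 and 226 units in DP at day 6, against 769.8, 660.1 and 782 units in DP at day 3, and fell by 1.51 ± 0.16 (adjusted p = 6.28e-06). In light LHB1B2 had 1780, 1788 and 1584 units, so that both days of darkness lay below the light arrays, as they did for PSBW and PSAE-1.

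The antenna list was not uniform within itself. LHCB4.2, a minor antenna protein of the CP29 type, had 160.4, 165 and 165 units in DP at day 6, against 232, 268 and 334 units in DP at day 3, and fell by 0.75 ± 0.15 (adjusted p = 0.00561). Its near relatives did not pass: LHCB4.1 stood at -0.28 ± 0.11 (adjusted p = 0.196) and LHCB4.3, near the lower quartile of all genes on both days, at 0.16 ± 0.16 (adjusted p = 0.697). PSAN, a photosystem I subunit of the thylakoid lumen, fell by 0.55 (adjusted p = 0.0431). That call held when replicate 3 of day 6 was left out, and was lost without any other DP array, at an adjusted p = 0.0712 (without replicate 1 of day 3) to 0.163 (without replicate 2 of day 6). PSBY stood at -0.18 ± 0.13 (adjusted p = 0.573). Centring on the reference genes left 4 of the list lower, with a median of -0.44.

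Other thylakoid proteins fell with them. By the words of their symbols and synonyms, 7 of 12 genes of photosystem, antenna and thylakoid proteins fell and none rose, with a median of -0.57, and with reference-gene centring 6 fell. Of these 7, TAPX, CURT1A, TROL and TAAC are neither photosystem nor antenna proteins. TAPX, the thylakoid-bound ascorbate peroxidase that removes hydrogen peroxide, had 76.3, 75.1 and 105 units in DP at day 6, against 169, 167 and 204 units in DP at day 3, and fell by 1.08 ± 0.15 (adjusted p = 0.000146). The gene of CURT1A (AT4G01150), which bends the thylakoid membrane at the edges of the grana, fell by 0.84 ± 0.16 (adjusted p = 0.0029). TROL, which holds ferredoxin-NADP reductase at the membrane, had 551, 599 and 522 units in DP at day 6, against 861, 874 and 901 units in DP at day 3, and fell by 0.66 ± 0.11 (adjusted p = 0.00137). TAAC, which carries ATP and ADP across the thylakoid membrane, fell by 0.48 (adjusted p = 0.0434), and this call held without replicate 3 of day 3 and was lost without each of the other DP arrays, at an adjusted p = 0.0618 (without replicate 2 of day 6) to 0.213 (without replicate 1 of day 3).

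The pigment pathways changed in fewer genes. The median of 5 measured genes of chlorophyll synthesis was -0.13 and became 0.08 with reference-gene centring. None of them rose and, against 2.53% lower over all genes, 1 fell. It was PORB, which reduces protochlorophyllide in light, with 68.8, 84.7 and 80.6 units in DP at day 6, against 118, 102 and 116 units in DP at day 3 and 692, 508 and 572 units in light. The arrays of the 2 days did not overlap, and PORB fell by 0.53 ± 0.13 (adjusted p = 0.0232). PORB no longer passed when replicate 1 of day 6 (adjusted p = 0.101) or replicate 1 or 3 of day 3 (adjusted p = 0.0958 and 0.0792) was left out. AT1G74470, the geranylgeranyl reductase that supplies the phytyl tail of chlorophyll and of tocopherol, had 120.3, 111 and 106 units in DP at day 6, against 226, 230.5 and 222 units in DP at day 3, and fell by 1.01 ± 0.11 (adjusted p = 5.12e-06). NOL, which reduces chlorophyll b as the first step of its breakdown, was the 1 measured gene of that list and fell by 0.43 ± 0.12 (adjusted p = 0.0494). Its call held without replicate 1 of day 6 and was lost without each of the other DP arrays, at an adjusted p = 0.0566 (without replicate 3 of day 3) to 0.217 (without replicate 2 of day 3).

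In carbon fixation and photorespiration little passed. None of 3 measured Calvin cycle genes was called, with RCA, SBPASE and PRK at -0.26, -0.30 and -0.29, and SBPASE passed without replicate 2 of day 6 (-0.48, adjusted p = 0.0271). None of 4 genes of photosynthetic electron transport and the plastid NDH complex was called, with a median of -0.11 that became 0.11 with reference-gene centring. In the list of photorespiration AT1G80380 rose by 0.56 ± 0.15 (adjusted p = 0.0391), with 283, 298 and 298 units in DP at day 6, against 203, 225 and 170.3 units in DP at day 3. That call held without replicate 2 of day 3, and without each of the other DP arrays the adjusted p was 0.0691 (without replicate 1 of day 6) to 0.174 (without replicate 3 of day 3). The other 3 members stood at -0.27 (AT1G11860), -0.28 (HPR) and 0.00 (LrgB).

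**Figure D2:**
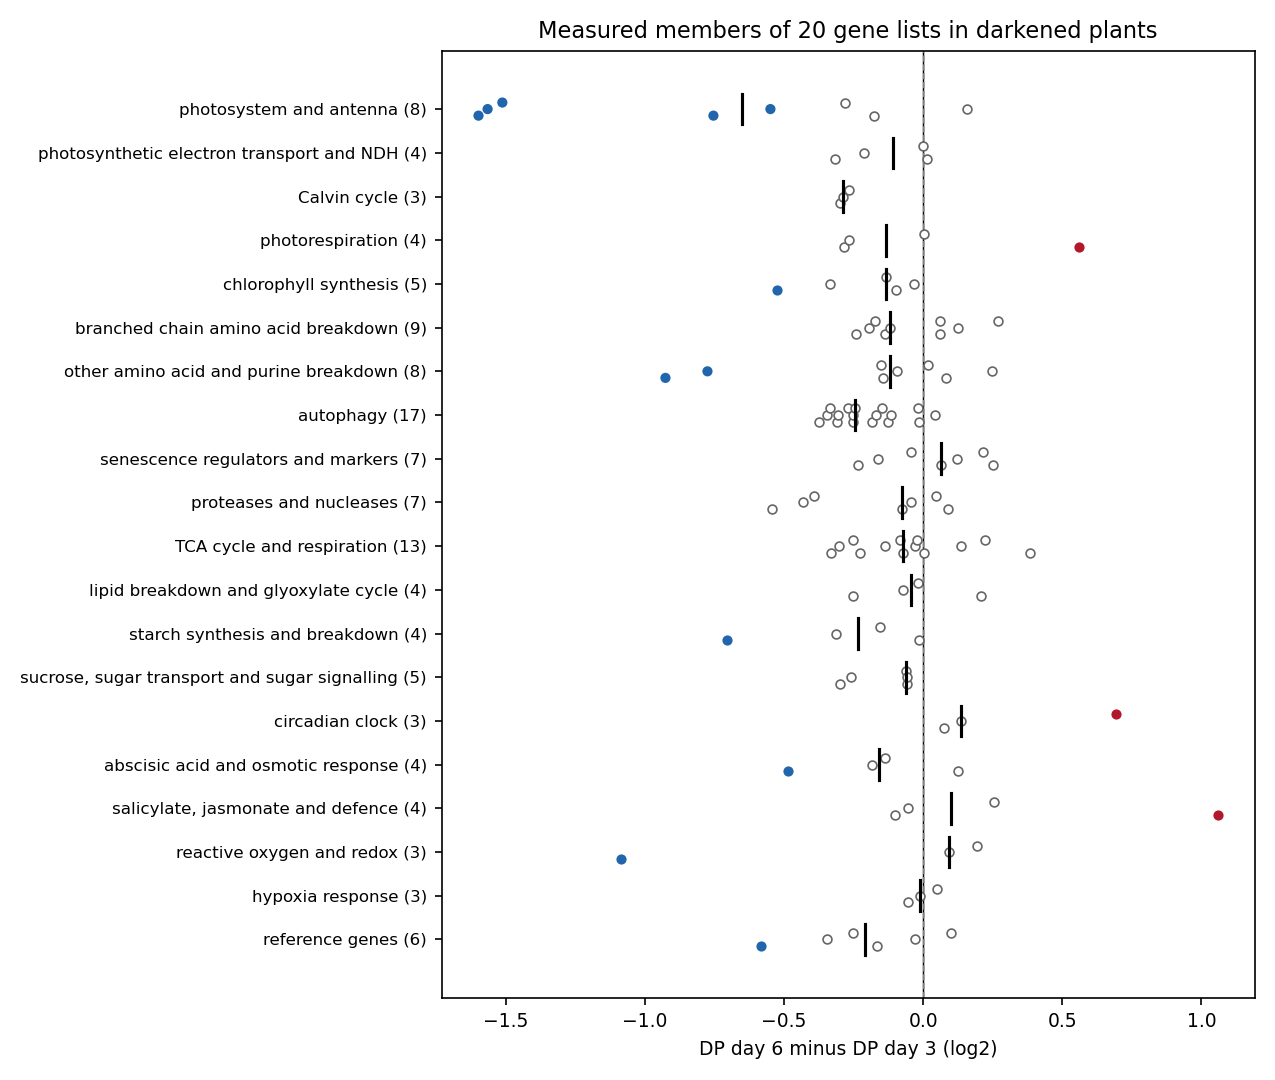
Change between day 3 and day 6 of darkness in DP leaves (x axis, day 6 minus day 3, log2) of the measured members of 20 gene lists, whose number stands in parentheses. Filled points were called (red higher, blue lower at day 6), open points were not, the black bar is the median of the list and the dashed line the median of all genes. The 5 called falls at the top are the photosystem and antenna genes, and no member of the autophagy list was called.

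The lists of autophagy and amino acid use gave no or few calls after day 3. With 4.56% of all genes called, lists this short can hold no call without differing from other genes. None of 17 measured autophagy genes was called, although 16 of them lay below 0, with a median of -0.24 that became -0.03 with reference-gene centring. APG8H (AT3G15580), a member of the ATG8 family whose proteins coat autophagosomes, was lowest at -0.37 ± 0.13 (adjusted p = 0.118), and it passed without replicate 1 of day 6 (-0.50, adjusted p = 0.0464). ATG8B stood at -0.34 ± 0.12 (adjusted p = 0.113), with 128, 128 and 129 units in DP at day 6, against 151, 179 and 159.97 units in DP at day 3. None of 9 genes of branched chain amino acid breakdown was called, with a median of -0.12 that became 0.09 with reference-gene centring. In it MCCB, of leucine breakdown, stood at -0.17 ± 0.14 with a 95% interval of -0.47 to 0.12, and ETFQO, which hands electrons from this pathway to ubiquinone, stood at 0.13 ± 0.13 with an interval of -0.15 to 0.41.

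Of 8 genes of other amino acid and purine breakdown 2 fell and none rose, with a median of -0.12 that became 0.09 with reference-gene centring. ALN, the allantoinase that opens the ring of allantoin when purines are broken down, had 41.2, 42.4 and 35.7 units in DP at day 6, against 77.4, 73 and 75.6 units in DP at day 3 and 76, 66.1 and 75.7 units in light. It fell by 0.93 ± 0.12 (adjusted p = 5.44e-05), and the arrays of the 2 days lay well apart. UGLYAH, an aminohydrolase further along the same pathway and singled out after its values were seen, fell by 0.79 ± 0.12 (adjusted p = 0.000528). In the list 2 more ureide genes did not pass, with AAH at -0.15 ± 0.17 (adjusted p = 0.751) and URE at 0.02 ± 0.11 (adjusted p = 0.967). AT5G38710, which the list holds for proline breakdown, had 27.2, 32.6 and 24.3 units in DP at day 6, against 43.9, 57.3 and 43 units in DP at day 3, and fell by 0.77 ± 0.15 (adjusted p = 0.00267). AT4G33150, of lysine breakdown, stood at 0.08 ± 0.13 (adjusted p = 0.845).

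Respiration, lipid breakdown and the regulators of senescence gave no calls either. Among 13 genes for mitochondrial respiration and the tricarboxylic acid cycle none was called, with changes between -0.33 and 0.38 and a median of -0.07 that became 0.14 with reference-gene centring, in which AT5G65750 passed (0.60, adjusted p = 0.0059). None of 4 genes of lipid breakdown and the glyoxylate cycle was called, and ICL, the isocitrate lyase, stood at 0.21 ± 0.12 (adjusted p = 0.439), measured from a day 3 level near the lower quartile of all genes. None of 7 senescence regulators and markers passed, with a median of 0.06. WRKY22 stood at -0.23 ± 0.14 and EIN3, a transcription factor of the ethylene response, at 0.25 ± 0.11. With the reference genes as the scale EIN3 (0.46, adjusted p = 0.0207) and ICL (0.42, adjusted p = 0.0321) passed. None of 7 proteases and nucleases of the vacuole was called. By symbol, 1 of 37 serine carboxypeptidases and subtilases fell (2.70%, against 4.56% called over all genes). It was SCPL34, which fell by 0.79 ± 0.15 (adjusted p = 0.0035).

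Sugar and starch genes gave single calls in both directions. DPE1, the plastid disproportionating enzyme that handles the maltotriose left by starch breakdown, had 43.3, 55.4 and 48.4 units in DP at day 6, against 86, 75.8 and 76.9 units in DP at day 3, and fell by 0.70 ± 0.14 (adjusted p = 0.00417). It was the 1 call in a list of 4 starch genes, in which AMY1 stood at -0.01 ± 0.23. TMT1, which loads sugars into the vacuole, had 483, 376 and 463 units in DP at day 6, against 668, 767 and 781 units in DP at day 3, and fell by 0.75 ± 0.12 (adjusted p = 0.000773). SWEET4, a sugar channel of the SWEET family, was higher on all 3 arrays of day 6, with 33.2, 46 and 38.4 units in DP at day 6, against 22.6, 24.3 and 17.7 units in DP at day 3, and rose by 0.86 ± 0.19 (adjusted p = 0.00813). The call of SWEET4 was lost without replicate 3 of day 3 (0.73, adjusted p = 0.0542) or replicate 2 of day 6 (0.74, adjusted p = 0.0601). Of the 20 sugar transporters by symbol these 2 were called (10%, against 4.56% over all genes). With reference-gene centring 6 were higher and 1 lower. The paralog TMT2 stood at 0.39 ± 0.12 (adjusted p = 0.0829) but passed without replicate 2 of day 6 (0.50, adjusted p = 0.0398). AKINBETA1, a subunit of the energy-sensing kinase SnRK1, stood at -0.26 ± 0.12 (adjusted p = 0.264), and none of its list of 5 genes was called.

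Among the lists of light, auxin and cytokinin responses 1 gene was called, IAA29. None of 5 SAUR proteins and 8 genes of the cytokinin response by symbol was called, nor the 1 measured gene of light signalling, HYH (-0.10 ± 0.13). FHL, which is in none of these lists and was taken as 1 of the largest falls, helps its relative FHY1 take phytochrome A into the nucleus. It had 92.8, 81.5 and 119 units in DP at day 6, against 311, 244 and 246 units in DP at day 3. FHL fell by 1.46 ± 0.15 (adjusted p = 5.12e-06), and in light it had been near 19.7, 17.9 and 24.5 units, below both days of darkness. HAT2, an auxin-induced homeobox factor, had 40, 35 and 31.5 units in DP at day 6, against 112, 98.4 and 78.8 units in DP at day 3, and fell by 1.43 ± 0.18 (adjusted p = 5.35e-05). IAA29, a repressor of the auxin response, was called among 8 Aux/IAA and auxin response factors, with 11.7, 10.3 and 13.8 units in DP at day 6, against 41.3, 26.6 and 38.3 units in DP at day 3. Its difference of -1.55 ± 0.16 (adjusted p = 5.12e-06) is a lower bound on its size, since the day 6 level was near the lower quartile of all genes. BIM1, a partner of the brassinosteroid factor BES1 and singled out after its values were seen, had 204, 206 and 191 units in DP at day 6, against 368, 374 and 395 units in DP at day 3, and fell by 0.92 ± 0.13 (adjusted p = 0.000141). BRH1, a brassinosteroid-responsive RING protein and the 1 call among 10 ubiquitin ligases by symbol, fell by 0.53 ± 0.11 (adjusted p = 0.00565).

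Of 35 expansins and xyloglucan hydrolases by symbol 2 fell (5.71%) and none rose, near the 4.56% called over all genes. The median was 0.04, 22 of the 35 lay above 0, and with reference-gene centring 4 rose. The 2 that fell are expansins, which loosen the wall for growth. EXPA16 had 55.8, 62 and 51.4 units in DP at day 6, against 121, 145 and 119.9 units in DP at day 3 and 38.3, 28.8 and 20 units in light, and fell by 1.19 ± 0.21 (adjusted p = 0.00157). EXPA8 fell by 0.78 ± 0.16 (adjusted p = 0.00563), from levels of 17.7, 25.7 and 19.1 units in DP at day 6 and 30.2, 33.4 and 43.5 units in DP at day 3. TUB5, a beta-tubulin of the microtubules, had 18, 16.7 and 16.2 units in DP at day 6, against 43.4, 39.1 and 35.8 units in DP at day 3, and fell by 1.21 ± 0.14 (adjusted p = 1.19e-05), and WLIM2a, which bundles actin filaments, fell by 0.93 ± 0.15 (adjusted p = 0.000662). EXO, which promotes leaf cell expansion, had 61.8, 51.8 and 50.1 units in DP at day 6, against 115, 69.8 and 105 units in DP at day 3, and fell by 0.79 ± 0.18 (adjusted p = 0.0138). The call of EXO was lost at an adjusted p of 0.0617 without replicate 2 and 0.062 without replicate 3 of day 6, and at 0.0919 without replicate 1 and 0.0657 without replicate 3 of day 3.

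Of 45 glycosyl hydrolases by symbol 4 fell and none rose, so that 8.89% were called against 4.56% over all genes. The median was -0.04 and became 0.17 with reference-gene centring, in which 2 rose and 3 fell. BGLU33, a beta-glucosidase, led them, with 73.6, 72.4 and 55.5 units in DP at day 6, against 202, 196 and 172 units in DP at day 3, and it fell by 1.51 ± 0.15 (adjusted p = 4.07e-06). BGLU44 fell by 0.81 ± 0.16 (adjusted p = 0.00493). GH9B7, of the endoglucanase family, fell by 0.72 ± 0.15 (adjusted p = 0.00618), a call lost without replicate 2 of day 6 (-0.60, adjusted p = 0.0513). BGLU16 fell by 0.47 (adjusted p = 0.0363), and its adjusted p was between 0.0569 (without replicate 1 of day 6) and 0.136 (without replicate 2 of day 6) whichever DP array was left out. None of 52 UDP-glycosyltransferases, 23 bZIP factors and 7 WRKY factors by symbol was called, with medians of 0.01, -0.06 and -0.22. With reference-gene centring the medians of the first and the second were 0.22 and 0.15, and 8 of the glycosyltransferases and 4 of the bZIP factors were called higher.

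Glutathione transferases moved both ways, with 1 of 14 higher and 2 lower (2 higher and 1 lower with reference-gene centring). Over all genes 2.03% were higher and 2.53% lower, and the median of the 14 was 0.05. GSTF3 had 76.6, 102 and 67.4 units in DP at day 6, against 30.5, 56.6 and 22.8 units in DP at day 3, and rose by 1.25 ± 0.22 (adjusted p = 0.00177). Replicate 2 of day 3 was the highest of its group, yet below all arrays of day 6. GSTL3, of the lambda class, had 234, 173 and 165 units in DP at day 6, against 407, 438 and 308 units in DP at day 3, and fell by 1.01 ± 0.14 (adjusted p = 0.000143). GSTU18 fell by 0.52 (adjusted p = 0.02), and the adjusted p was 0.0614 without replicate 1 of day 3, 0.0711 without replicate 3 of day 3, 0.0807 without replicate 1 of day 6 and 0.0597 without replicate 2 of day 6. Among cold and drought genes, chosen after their values were seen apart from COR47, KIN2 fell by 0.78 ± 0.12 (adjusted p = 0.00055), from the high levels of 932, 967 and 1070 units in DP at day 6 and 1648, 1760 and 1675 units in DP at day 3. The dehydrin COR47 was the 1 call in a list of 4 genes of abscisic acid and osmotic responses and fell by 0.49 ± 0.12 (adjusted p = 0.0187), a call lost without replicate 1 of day 3 (adjusted p = 0.0975) or replicate 2 of day 6 (0.0942).

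**Figure D3:**
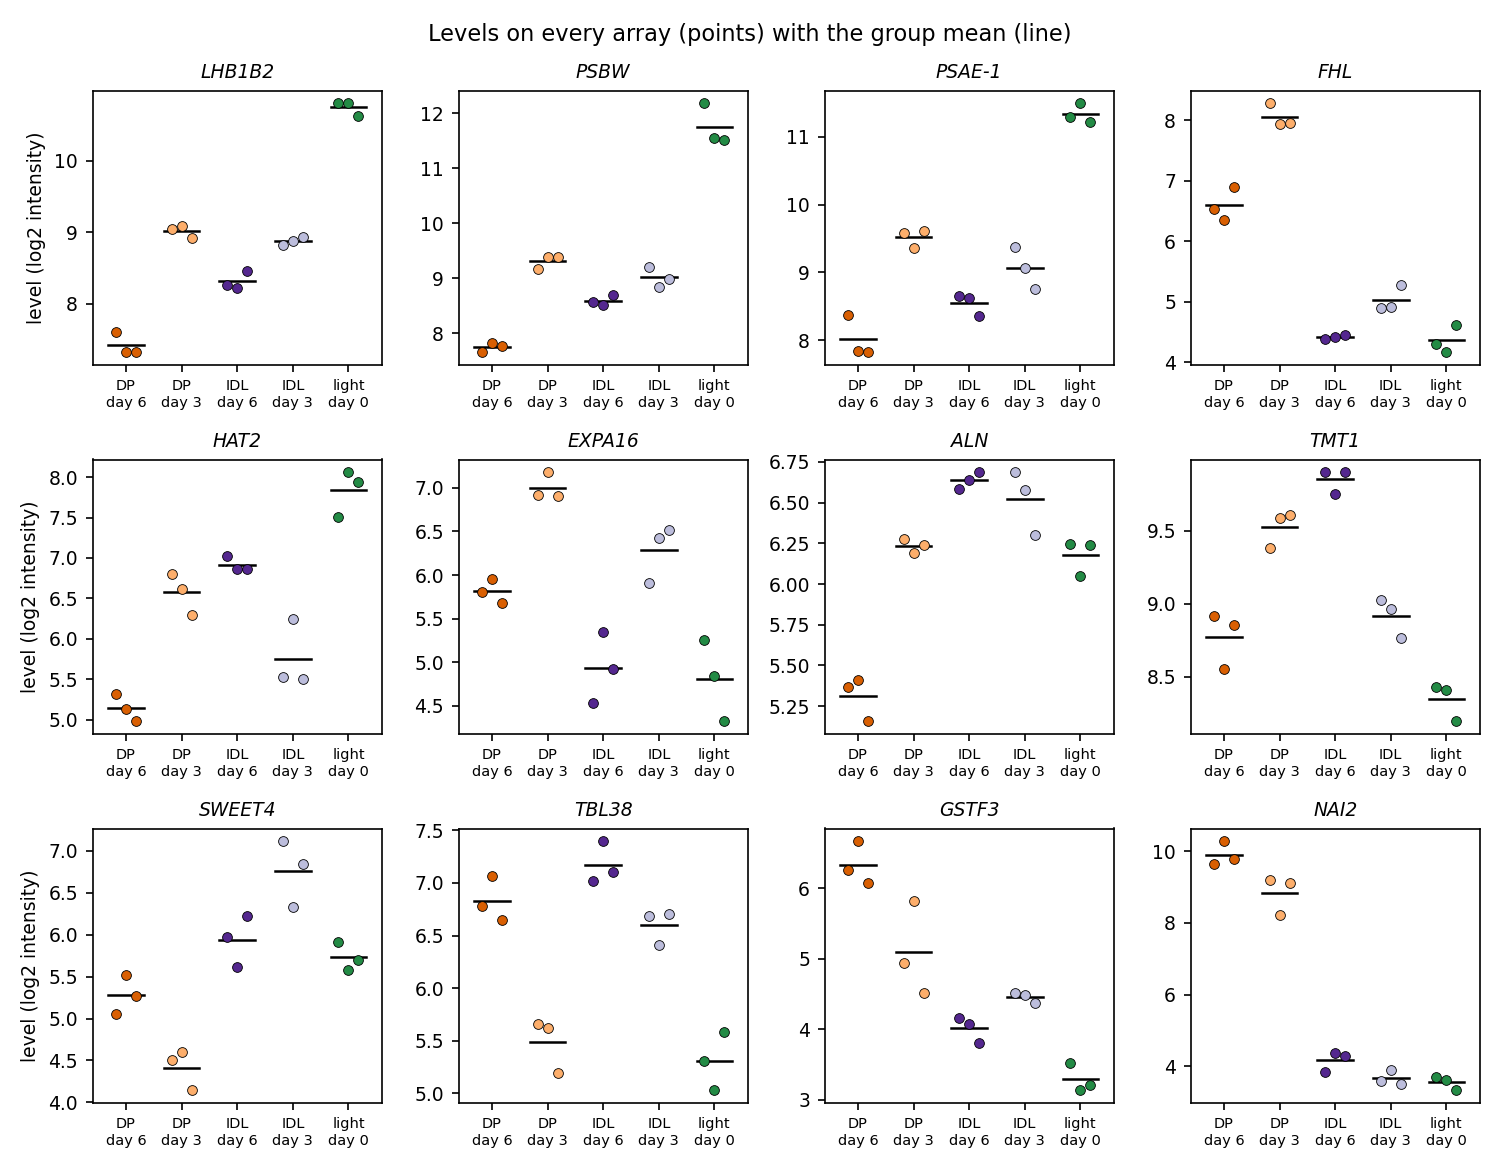
Levels (y axis, log2 intensity) of 12 genes on every array of the 5 groups (x axis), with points for arrays and lines for group means. In each panel the 3 arrays of DP at day 6 lie wholly above or wholly below those of DP at day 3. Choosing called genes nearly ensures this separation, which held for 20.3% of all genes tested. For NAI2 all DP arrays lie above all IDL and light arrays.

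Fewer of the genes with a symbol rose. TBL38, of the trichome birefringence-like family that acetylates wall polysaccharides, led them, with 109.7, 134 and 100.3 units in DP at day 6, against 50.4, 49.2 and 36.5 units in DP at day 3. It rose by 1.34 ± 0.16 (adjusted p = 2.52e-05), which is 2.53-fold, and in light it had 39.7, 32.6 and 48 units. NAI2, which is needed to form the endoplasmic reticulum bodies that store defence glucosidases, had 799, 1247 and 879 units in DP at day 6, against 589.97, 296 and 556 units in DP at day 3 and 12.9, 12.3 and 10 units in light. It rose by 1.06 ± 0.22 (adjusted p = 0.00543), and it was the 1 call among 4 genes of salicylate, jasmonate and defence responses. In the same list the defensin gene PDF1.4 stood at 0.26 ± 0.45 (adjusted p = 0.856). COR27, a cold-regulated gene of the circadian clock, was higher on all 3 arrays of day 6, with 823, 628 and 489 units in DP at day 6, against 437, 360.3 and 379 units in DP at day 3, and rose by 0.69 ± 0.18 (adjusted p = 0.0256). Its call was lost without replicate 2 (adjusted p = 0.0974) or 3 (0.0816) of day 3 and without replicate 1 (0.131) or 2 (0.0741) of day 6.

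Of the other large rises among genes with a symbol, 5 did not depend on any single array. NRPA1, the largest subunit of RNA polymerase I, which makes ribosomal RNA, had 95.1, 123 and 105 units in DP at day 6, against 64.8, 60.2 and 71.1 units in DP at day 3, and rose by 0.71 ± 0.13 (adjusted p = 0.00164). PRH75, a DEAD-box RNA helicase, had 580.1, 633 and 742 units in DP at day 6, against 427, 391 and 436 units in DP at day 3, and rose by 0.63 ± 0.11 (adjusted p = 0.00127). PSF2, named for a subunit of the complex that starts DNA replication, rose by 0.75 ± 0.14 (adjusted p = 0.00343). ATRBP45C, an RNA-binding protein at a high level, had 1561, 1775 and 1460 units in DP at day 6, against 1111, 955 and 1054 units in DP at day 3, and rose by 0.62 ± 0.12 (adjusted p = 0.00348). IYO, which is known to let dividing cells start to differentiate, rose by 0.57 ± 0.11 (adjusted p = 0.00493).

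Other rises had adjusted p values nearer to 0.05 and lost their call without 1 or more of the DP arrays. PPR336, a pentatricopeptide repeat protein and the 1 call of 4 by symbol, rose by 0.73 ± 0.19 (adjusted p = 0.0306). Its call held without replicate 3 of day 6 and was lost without each other DP array. The change was 0.47 (adjusted p = 0.196) without replicate 2 of day 6 and 0.69 to 0.77 in the other fits that lost the call. M17 rose by 0.72 ± 0.16 (adjusted p = 0.0121) from a day 3 level near the lower quartile, and lost its call without replicate 3 of day 6 (0.60, adjusted p = 0.0749). The chromatin remodeller CHR23 rose by 0.62 ± 0.17 (adjusted p = 0.0436), and it kept its call without replicate 2 of day 3 or replicate 1 of day 6, with an adjusted p of 0.143 to 0.187 without each other array. The RNA helicase gene AT3G09720 rose by 0.55 ± 0.15 (adjusted p = 0.0398), and it kept its call without replicate 3 of day 3 or replicate 1 of day 6, with 0.0968 to 0.194 without each other array. Of 7 histone genes by symbol 2 rose, against 2.03% over all genes, with HON4 at 0.43 ± 0.11 (adjusted p = 0.0287) and HIS1-3 at 0.47 ± 0.14 (adjusted p = 0.0494). The median of the 7 was 0.10, and 1 of them was called higher with median centring. HON4 kept its call without replicate 3 of day 3 or replicate 1 of day 6 (0.061 to 0.132 without each other array), and HIS1-3 without replicate 2 of either day (0.14 to 0.193 without each other array).

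Markers of other cell types were few. Of 2 measured guard cell markers AT1G22690 fell by 0.53 ± 0.13 (adjusted p = 0.0238), with 34.9, 26.4 and 32.9 units in DP at day 6, against 41.6, 39.3 and 56.4 units in DP at day 3, and FMA stood at -0.05 ± 0.14 (adjusted p = 0.925). The call of AT1G22690 was lost without replicate 3 of day 3 (-0.37, adjusted p = 0.144) or replicate 2 of day 6 (-0.41, adjusted p = 0.144). The part of these cells in the results above was not tested. EXPA7, the root marker, stood at 0.14 ± 0.13 (adjusted p = 0.669).

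The same 3 days in individually darkened leaves, with no array in common, gave another set of changes. There 1398 genes were called (8.64%), 779 higher (4.82%) and 619 lower (3.83%), and 240 changed at least 2-fold. The genes lower in both treatments numbered 85, which is 20.7% of the DP falls and 13.7% of the IDL falls. Those higher in both numbered 47, or 14.3% of the DP rises and 6.03% of the IDL rises. A further 22 genes rose in DP and fell in IDL, and 20 fell in DP and rose in IDL. All 42 passed the test of the difference, which opposite calls from the same fit all but ensure. Over the 16174 genes the changes of both treatments correlated at a Pearson r of 0.098 and a Spearman rho of 0.048, as a description of genes measured on one set of arrays. The test of the difference itself called 867 genes (5.36%), 360 with the DP change above the IDL change and 507 with the DP change below it, and 258 of the 738 genes called in DP (34.96%) were among them.

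For 3 photosystem and antenna genes the fall was larger in DP than in IDL. LHB1B2 changed by -1.60 ± 0.11 in DP and by -0.57 ± 0.11 in IDL, and the difference of -1.03 ± 0.16 passed (adjusted p = 0.000313). PSBW differed by -1.14 ± 0.21 (adjusted p = 0.00186) and PSAE-1 by -0.99 ± 0.23 (adjusted p = 0.011). For LHCB4.2 the difference was -0.61 ± 0.22 (adjusted p = 0.112), for TAPX -0.62 ± 0.21 (adjusted p = 0.0969) and for PSAN 0.10 ± 0.22 (adjusted p = 0.86), none of which passed. Other lists lay lower in IDL. Their IDL and DP medians were -0.28 and -0.11 for electron transport and NDH, -0.51 and -0.13 for photorespiration, and -0.41 and -0.13 for chlorophyll synthesis. Those of the Calvin cycle were close, at -0.27 and -0.29. In these lists the difference passed for LrgB alone, at 0.69 (adjusted p = 0.0221). ALN, of purine breakdown, stood at 0.11 ± 0.12 in IDL and a difference of -1.04 ± 0.17 (adjusted p = 0.000386).

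TMT1, DPE1 and SWEET4 moved in opposite ways. TMT1 had 956, 862 and 956 units in IDL at day 6, against 522, 499 and 435 units in IDL at day 3, a change of 0.93 ± 0.12 (adjusted p = 2.03e-05) where DP had -0.75, and the difference was -1.68 ± 0.17 (adjusted p = 1.94e-06). DPE1 had 79.7, 81.1 and 83.7 units in IDL at day 6, against 43.2, 30.7 and 41.9 units in IDL at day 3, and the difference was -1.80 ± 0.20 (adjusted p = 4.26e-06). SWEET4 went the other way round, with -0.82 ± 0.19 in IDL (adjusted p = 0.00644) and a difference of 1.69 ± 0.26 (adjusted p = 0.000314). In all 3 genes the DP and IDL changes were both called and opposite in sign.

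EXO, HAT2 and BIM1 differed as well. EXO had 39.6, 46.1 and 38.8 units in IDL at day 6, against 10.7, 9.26 and 14.1 units in IDL at day 3, so that the change in DP lay -2.68 from that in IDL (adjusted p = 8.57e-07). The gene was called in both treatments, with opposite signs, and since its IDL day 3 level lay near the lower quartile of all genes, the IDL rise and the difference are lower bounds on their size. HAT2 changed by 1.16 ± 0.18 in IDL (adjusted p = 0.000159), with a difference of -2.59 ± 0.25 (adjusted p = 9.78e-07), and BIM1 by 0.58 ± 0.13, with a difference of -1.50 ± 0.18 (adjusted p = 1.18e-05). EXPA16 fell in both, by 1.19 in DP and 1.35 in IDL, and the difference of 0.16 ± 0.29 did not pass (adjusted p = 0.839). In the autophagy list ATG8H (AT3G06420), another ATG8 gene, had 50.9, 45.5 and 36.9 units in DP at day 6 and 50, 56.2 and 53.3 units in DP at day 3, and with 152, 165 and 191 units in IDL at day 6 and 105, 117 and 81.1 units in IDL at day 3. It changed by -0.27 ± 0.14 in DP (adjusted p = 0.364) and 0.76 ± 0.14 in IDL (adjusted p = 0.00137), with a difference of -1.02 ± 0.20 (adjusted p = 0.00326).

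**Figure D4:**
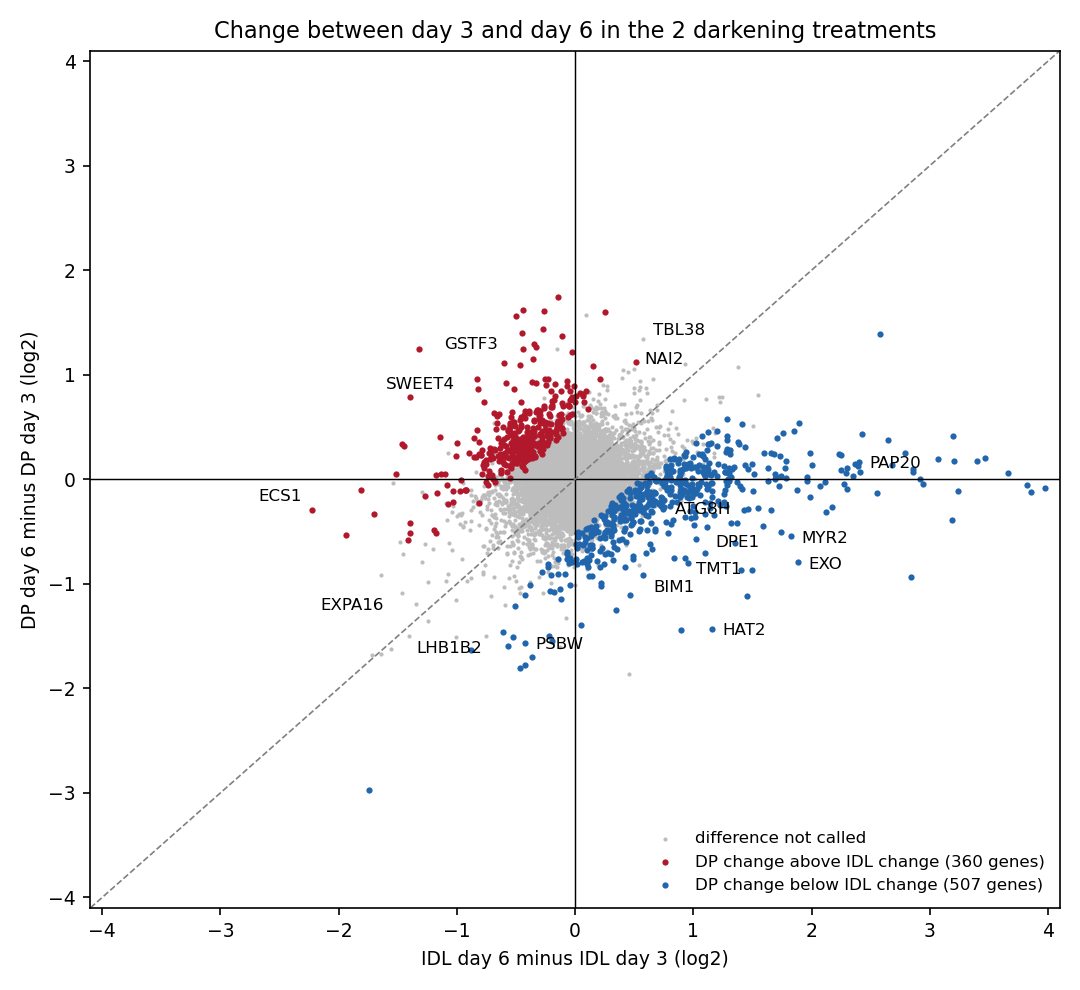
Change between day 3 and day 6 in individually darkened leaves (x axis, log2) and in darkened plants (y axis, log2) of the 16174 genes tested. Red points mark the 360 genes with the DP change above the IDL change by the test of the difference and blue points the 507 with the DP change below it, and the dashed line marks equal change. Among the labelled genes, TMT1 and HAT2 fell in DP and rose in IDL, and SWEET4 rose in DP and fell in IDL.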

How the data were processed

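The deposited intensities are linear, with 1 value for each probe set on each array, and were produced with oligo, per the submitters' processing notes. Which version, background correction and normalization were used is not given in the sources used here. No detection calls were used. The platform annotation gave a single gene to 16179 of the 26676 probe sets, several genes to 588 and none to 9909. The brightest probe set stood for each of 5 genes with more than 1, which gave 16174 genes. Symbols and synonyms came from RefSeq (TAIR10.1), in which 16161 probe sets matched by locus. Gene start positions from RefSeq served only to order protein-coding genes as neighbours, and no sequences were used.

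After conversion to log2, 1 limma fit (version 3.58.1, lmFit and eBayes, in R 4.3.3) took in all 15 arrays, with a mean for each of 5 groups, 10 residual degrees of freedom and a prior of 10.52. The contrasts were day 6 minus day 3 in DP, the same in IDL, and their difference. Genes with a two-sided p under 0.05 after Benjamini-Hochberg adjustment over all genes of the contrast were called. For changes measured from or to a level within 0.15 log2 of the lower quartile of all genes, no fold is given. With 3 arrays per group precision is limited. On simulated data, with 50 genes per size among 16174, the step recovered 10% of 1.25-fold, 48% of 1.5-fold, 90% of 2-fold and 98% of 4-fold changes, and 1.6% of 125 calls were false.

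The genes and lists described were chosen with earlier results of these data known. Named genes are the 14 largest rises and falls among called genes with a symbol or product description and with arrays that do not overlap, up to 3 called genes each way per list or family, the 5 largest differences each way between DP and IDL, and a few preset genes. Further members of the lists and families, called or not, and all other genes named were picked after their values were seen. Alternatives were a stricter threshold, a 2-fold minimum, leaving out dim genes, 3 other scalings, the robust eBayes prior with a trend, weighted arrays, a fit restricted to the groups compared, the replicate block, all probe sets, the mean of probe sets, and leaving out each array.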

Additional observations from a re-analysis of the deposited data

Results flagged for a closer look

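Each gene here was flagged because its change between day 3 and day 6 differed between DP and IDL by the limma test of the difference itself. Values are the DP change minus the IDL change on the log2 scale, with 3 arrays per group, and the causes of the differences were not tested.

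Among genes with the DP change below the IDL change, the difference was -2.68 for EXO, -2.59 for HAT2, -1.80 for DPE1, -1.68 for TMT1 and -1.02 for ATG8H, all described above. MYR2, a MYB-related factor, had 20.5, 20.6 and 22.5 units in DP at day 6, against 31.2, 31.7 and 30.1 units in DP at day 3, and 125, 128 and 141 units in IDL at day 6, against 34.6, 34.4 and 42.4 units in IDL at day 3. It fell by 0.55 ± 0.11 in DP and rose by 1.83 ± 0.11 in IDL, a difference of -2.38 (adjusted p = 3.32e-09). The DP fall of MYR2 was not called with reference-gene centring (-0.34, adjusted p = 0.0855). JRG21, named as a jasmonate-regulated gene, changed by -0.50 ± 0.27 in DP (adjusted p = 0.381) and by 1.74 ± 0.27 in IDL (adjusted p = 0.000195), a difference of -2.24. PAP20, a purple acid phosphatase by name, changed by 0.17 ± 0.17 in DP (adjusted p = 0.715) and by 2.40 ± 0.17 in IDL (adjusted p = 3.12e-09), a difference of -2.23. FAMT, which methylates farnesoic acid, changed by -0.42 ± 0.21 in DP (adjusted p = 0.333) and by 1.32 ± 0.21 in IDL (adjusted p = 0.000256), a difference of -1.74. JRG21, PAP20 and FAMT were near the lower quartile of all genes in at least 1 DP group, and EXO in IDL at day 3, levels that are not shown to be above background.

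Further genes that fell in DP had a smaller or opposite change in IDL. The difference was -1.35 for IAA29, -1.14 for PSBW, -1.03 for LHB1B2, -0.99 for PSAE-1 and -0.85 for FHL. The same limit holds for IAA29, whose day 6 level in DP and day 3 level in IDL were near that quartile. The difference was -1.09 for AT5G38710, -1.04 for ALN, -0.97 for GSTL3, -0.83 for BGLU44, -0.70 for TUB5 and -0.63 for AT1G74470.

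The DP change lay above the IDL change by 1.69 for SWEET4 and by 1.69 for GSTF3. ECS1 had 213, 192 and 198 units in DP at day 6, against 174, 506 and 169 units in DP at day 3, with replicate 2 of day 3 far above the others, and it changed by -0.29 ± 0.33 in DP (adjusted p = 0.747) and by -2.22 ± 0.33 in IDL (adjusted p = 0.000105), a difference of 1.93. AGL104, a MADS box factor, changed by -0.16 ± 0.16 in DP (adjusted p = 0.716) and by -1.27 ± 0.16 in IDL (adjusted p = 1.56e-05), a difference of 1.11. AT4G28650 changed by 0.25 ± 0.13 in DP (adjusted p = 0.374) and by -0.90 ± 0.13 in IDL (adjusted p = 0.000102), a difference of 1.15.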

How the results depend on the processing

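No gene named from the DP comparison turned its sign while called in any setting tried. For genes called on the deposited scale, the centrings moved all changes by too little to turn a sign. At an adjusted p under 0.01 the DP comparison called 316 genes (125 higher, 191 lower), with a 2-fold minimum 71 (27 higher, 44 lower), and with reference-gene centring 2349 (2196 higher, 153 lower), of which 481 were among the 738 of the deposited scale. Leaving out 1 DP array gave 420 to 602 calls, with 174 to 260 higher and 244 to 342 lower. The total was 441 (197 higher, 244 lower) without replicate 1 of day 3 and 420 (174 higher, 246 lower) without replicate 2 of day 6, and 218 genes were higher without replicate 2 of day 3. The other settings gave totals of 577 (only the arrays compared) to 822 (all probe sets). Median centring and quantile normalization gave the splits printed above. The IDL comparison called 743 genes at an adjusted p under 0.01, 240 with the 2-fold minimum, and 918 (without replicate 2 of IDL day 3) to 1169 without 1 IDL array. The difference between both treatments was called for 426 genes at an adjusted p under 0.01, for 298 with the 2-fold minimum, and for 655 to 885 without 1 array of either treatment. Array weights ended the calls of CHR23, AT1G80380, HIS1-3, PSAN, NOL, TAAC, AT2G07775 and AT2G45610 (adjusted p up to 0.0616). A fit of only the arrays compared ended those of AT3G09720, HIS1-3, HON4, NOL, AT1G22690, TAAC, AT2G07775, AT2G45590 and AT2G45610 (adjusted p = 0.0533 to 0.104). Quantile normalization ended those of PSAN (0.0515) and NOL (0.0624), and median centring those of HIS1-3 (0.0585) and AT2G07775 (0.0528). Why these calls were lost was not tested. The reference genes had a median change of -0.21 in DP on the deposited scale, and centring on them raised the change of all genes alike. Which of the scales is right cannot be told from the data used here.

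Replicate numbers are in the labels, but nothing there says that a number marks a shared plant, batch or day. Same-numbered arrays of both days deviated from their group means with correlations of 0.0615, -0.0395 and 0.0551 in DP and 0.0771, 0.0138 and 0.0439 in IDL, so the numbers were not taken as pairs. With the replicate block 727 genes were called in DP, 678 of them among the 738, and 1411 in IDL and 873 for the difference, and HIS1-3, PSAN and NOL were not called (adjusted p = 0.0536 to 0.0663).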

Other observations

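Single further genes with a symbol fell, chosen after their values were seen. PGL34, a protein of the lipid droplets of the plastid, had 189, 141 and 146 units in DP at day 6, against 314, 249 and 283 units in DP at day 3, and fell by 0.84 ± 0.13 (adjusted p = 0.000539). FTSZ2-2, of the ring that divides plastids, fell by 0.50 ± 0.11 (adjusted p = 0.00978), whereas its paralog FTSZ2-1 stood at 0.04 ± 0.15 (adjusted p = 0.943). The call of FTSZ2-2 was lost with reference-gene centring (-0.29, adjusted p = 0.117). LIL3:2, which holds the enzyme of the chlorophyll tail at the thylakoid, fell by 0.66 ± 0.16 (adjusted p = 0.0227), and it was no longer called without replicate 1 of day 6 (adjusted p = 0.119) or replicate 1 or 3 of day 3 (adjusted p = 0.0717 and 0.0858), or with reference-gene centring (-0.45, adjusted p = 0.0816). ALDH11A3, the cytosolic dehydrogenase that makes NADPH from glyceraldehyde 3-phosphate, had 367, 372 and 382 units in DP at day 6, against 654, 805 and 655 units in DP at day 3, and fell by 0.91 ± 0.12 (adjusted p = 0.000108). OPCL1, which activates a precursor in jasmonate synthesis, fell by 0.81 ± 0.13 (adjusted p = 0.000521).

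Called genes were next to each other in a few places of the genome. Of 10014 pairs of neighbouring genes that were both measured, 35 pairs were both called, 21 with both lower, 7 with both higher and 7 in opposite directions. Over all genes tested 4.56% were called, 2.53% lower and 2.03% higher. Whether neighbours were called together more often than these shares give was not tested. By a looser rule, 4 groups held 3 or more genes called in 1 direction, each within 3 gene positions of the next. On chromosome 2, AT2G32870 and AT2G32880 fell by 1.67 and 1.63 near BGLU33, which fell by 1.51. On chromosome 5, AT5G02170 and AT5G02180 fell by 0.63 and 0.58 near FHL. Also on chromosome 2, a group of falls held AT2G45590, AT2G45600 and AT2G45610, at -0.50, -0.61 and -0.43. With reference-gene centring AT5G02170 and AT5G02180 (adjusted p = 0.061 and 0.0615) and these 3 genes (0.123 to 0.241) were no longer called. These 3 calls were also lost in most fits that left out 1 DP array (adjusted p = 0.0514 to 0.173). AT2G45590 kept its call only without replicate 2 of day 6, AT2G45600 only without replicate 1 of day 3, and AT2G45610 without either of these. AT5G02170 was lost without replicate 2 of day 6 (0.0674) or replicate 1 of day 3 (0.0607).

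The last such group rose, and it lies in the part of chromosome 2 that carries a copy of mitochondrial DNA, so probes there may not tell the nuclear and the mitochondrial copy apart. AT2G07775, AT2G07806 and AT2G07795 stood at 0.48 ± 0.13, 0.65 ± 0.11 and 0.65 ± 0.15 in DP. AT2G07806 kept its call when any 1 DP array was left out. AT2G07775 lost its call without replicate 1 or 2 of day 6 or replicate 2 or 3 of day 3 (adjusted p = 0.0803 to 0.177), and AT2G07795 without replicate 2 of day 6 or replicate 1 or 2 of day 3 (0.0585 to 0.0824). In IDL they stood at -0.83 ± 0.13, -0.42 ± 0.11 and -0.29 ± 0.15. The differences between both treatments were 1.302 (adjusted p = 9.31e-05), 1.07 (adjusted p = 0.000216) and 0.95 (adjusted p = 0.00815).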
